A study of Mus musculus with 12 samples.

Results

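Gpnmb and 9 genes that are commonly named with it in lipid-associated macrophages (Spp1, Trem2, Lgals3, Ctsk, Apoe, Cd9, Cd68, Atp6v0d2 and Cd36) were followed across mouse skin wounds with and without capsaicin (CAP), the pungent compound of chili peppers and an agonist of the receptor TRPV1. The members were found by gene symbol, and all 10 were present among the 55487 genes of each table and passed the expression filter in every comparison. The study sequenced RNA of full-thickness punch wounds on the back of male C57BL/6JNarl mice, 6 weeks old, which carried 2 wounds each. The 4 groups, with 3 libraries in each, were wounds given Pluronic F127 gel alone (the sham group) at day 3 and at day 6, and wounds given 10 µM CAP in the same gel at day 3 and at day 6. All wounds thus received the gel once daily, and no library of unwounded skin was used here. The sources used here do not say whether any libraries came from the same mouse, and p values therefore measure the spread between the libraries, which are what n counts. Expression is given as TPM, a measure of the share of a library's transcripts that come from a gene, corrected for transcript length. Levels can thus be compared between genes, but between libraries only as shares, since a large rise in some genes lowers the share of all others.

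As background, lipid-associated macrophages are macrophages that take up lipid and cell debris and break it down in lysosomes, and they have been described in fat tissue, in atherosclerotic plaques, in the nervous system and in healing tissue. TREM2 is a surface receptor that binds lipids and lipoproteins and signals through the adaptor TYROBP. GPNMB is a glycoprotein of lysosomal and melanosomal membranes and of the cell surface, and the MiT family transcription factors (MITF, TFEB, TFE3 and TFEC) are known regulators of lysosomal genes. In a skin wound, macrophages clear dead neutrophils and debris in the first days and later take part in the formation of granulation tissue.

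The promoters of 3 members are shown because the members' levels moved together over the libraries, as given below. Each of these 3 had every sham library of day 6 above every sham library of day 3. Apoe and Atp6v0d2 did so as well, but the Apoe promoter is not printed and Atp6v0d2 had no promoter entry. Each line holds the 250 bases before the start of the gene in RefSeq, on GRCm38.p6, read 5′ to 3′ on the strand of the gene. Capitals mark any match, on either strand, to CACGTG or CATGTG (E-boxes of the kind MiT factors bind), TGAGTCA (the AP-1 site) or GAGGAA (a core of PU.1 sites).
Gpnmb, chr6:49036268-49036517, plus strand: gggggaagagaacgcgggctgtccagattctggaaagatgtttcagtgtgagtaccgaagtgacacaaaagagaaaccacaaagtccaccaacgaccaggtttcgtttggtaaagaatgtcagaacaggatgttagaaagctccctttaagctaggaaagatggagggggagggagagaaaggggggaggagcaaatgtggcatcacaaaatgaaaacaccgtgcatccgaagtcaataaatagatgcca
Trem2, chr17:48346151-48346400, plus strand: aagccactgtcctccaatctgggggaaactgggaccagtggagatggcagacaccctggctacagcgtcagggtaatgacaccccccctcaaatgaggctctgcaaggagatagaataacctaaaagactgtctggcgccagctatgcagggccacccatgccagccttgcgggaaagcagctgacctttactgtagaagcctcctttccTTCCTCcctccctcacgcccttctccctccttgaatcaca
Ctsk, chr3:95498960-95499209, plus strand: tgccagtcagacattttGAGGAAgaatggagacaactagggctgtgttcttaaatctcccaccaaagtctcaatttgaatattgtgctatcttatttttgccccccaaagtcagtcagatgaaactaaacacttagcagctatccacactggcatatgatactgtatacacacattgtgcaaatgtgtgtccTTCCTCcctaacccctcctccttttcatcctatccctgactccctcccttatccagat

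A promoter entry matched 9 of the 10 members. In the window from 250 bases before to 50 bases after the start, Gpnmb had 1 TGAGTCA, which begins 8 bases after the start and therefore lies outside the bases printed. Trem2 had 1 GAGGAA and Ctsk had 2, and neither held any of the other motifs. Of the other members, Cd68 had 2 TGAGTCA and 2 GAGGAA, Apoe had 2 GAGGAA, Spp1 had 1 GAGGAA and Cd9 had 1 CATGTG, while Lgals3 and Cd36 held no match. CACGTG was found in 0 of the 9 promoters. Among all 32851 promoters of the same length in the table, 7.15% held CACGTG, 14.2% CATGTG, 5.2% TGAGTCA and 28.3% GAGGAA. The starts of Lgals3 and Cd36 in the table lie 6109 and 52905 bases from the start of the gene in GENCODE M21, so their windows are those of another start site. A match describes the letters only.

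Between 18533 and 19325 genes per library reached 0.3 TPM. The depth of the libraries is unknown, because TPM carries no read counts. The 10 members together made up 0.915% to 2.25% of the TPM of a library. The label of a skin wound was checked with marker lists, and keratinocyte (8 genes), fibroblast (8 genes) and macrophage markers (14 genes) were all present at 0.3 TPM or more in every library. Melanocytes also make GPNMB, and the summed level of 8 melanocyte markers was 2.57 to 6.74 TPM per library, with Oca2 at 0 in all 12.

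Levels differed widely among the members. Apoe, the gene of an apolipoprotein that carries lipid out of cells, was the most abundant, with a mean of 8075 TPM over the 12 libraries and rank 7 among all genes. Spp1 (osteopontin, a secreted ligand of integrins and CD44), Lgals3 (galectin-3, a lectin that binds damaged lysosomes) and Gpnmb followed with means of 1638, 1454 and 1039 TPM, at ranks 64, 68 and 103. Cd68 (macrosialin, a lysosomal membrane protein) had a mean of 882 TPM, the tetraspanin Cd9 494 TPM, the collagen-degrading protease Ctsk 283 TPM, Trem2 163 TPM and the scavenger receptor Cd36 121 TPM. The lowest was Atp6v0d2, the d2 subunit of the proton pump that acidifies lysosomes, with a mean of 78.3 TPM. Atp6v0d2 was also the most variable member, with a ratio of 30.2 between its highest and lowest library, followed by Spp1 (14.9), Gpnmb (9.26), Cd36 (6.86) and Cd68 (4.08). At the other end, Cd9 varied by a ratio of 1.44.

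Gpnmb (ENSMUSG00000029816, chromosome 6, 49036546 to 49070929, plus strand, GRCm38) was at 286, 318 and 354 TPM in sham replicates 1 to 3 at day 3 while the CAP-treated wounds of that day had 456, 1287 and 2643 TPM. At day 6 it was at 993, 1416 and 1875 TPM in the sham group while the CAP-treated wounds had 455, 367 and 2014 TPM. All 9 other libraries were above the 3 sham libraries of day 3, and CAP-treated replicate 3 was the highest of its group at both days. As group means with SD (n = 3), the order was 319 ± 34.2 TPM in the sham group at day 3, 946 ± 927 TPM in the CAP-treated wounds at day 6, 1428 ± 441 TPM in the sham group at day 6 and 1462 ± 1104 TPM in the CAP-treated wounds at day 3. The last 3 of these overlapped with each other.

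Atp6v0d2 (ENSMUSG00000028238, chromosome 4, 19876841 to 19922605, minus strand) was at 7.61, 16.2 and 12.9 TPM in the sham libraries of day 3 while the CAP-treated libraries had 21.3, 80.2 and 229.6 TPM. At day 6 the values were 82.0, 112 and 165 TPM in the sham group and 29.3, 23.8 and 159 TPM in the CAP-treated wounds. The libraries fell in nearly the same order as for Gpnmb, with the 3 sham libraries of day 3 lowest and CAP-treated replicate 3 of day 3 highest. For comparison with the subunit that most cells use in its place, the ratio of Atp6v0d2 to Atp6v0d1 was 0.047, 0.1 and 0.078 in the sham group at day 3 and 0.13, 0.45 and 1.1 in the CAP-treated wounds. At day 6 this ratio was 0.54, 0.76 and 0.92 in the sham libraries and 0.17, 0.14 and 0.94 in the CAP-treated libraries. The 2 subunits were near an equal level in CAP-treated replicate 3 of both days and in sham replicate 3 of day 6.

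Among the ligands, Spp1 (ENSMUSG00000029304, chromosome 5, 104435118 to 104441050, plus strand) was at 1555, 1089.6 and 1709 TPM in the sham group and 1635, 1491 and 4712 TPM in the CAP-treated wounds at day 3. At day 6 it was at 1479.9, 2029.7 and 1409 TPM in the sham group and 514, 316 and 1711 TPM in the CAP-treated wounds. A single CAP-treated library was above the sham range at day 3, and at day 6 a pair of CAP-treated libraries was below it. Of the annotated transcript sequence of Spp1, 14.3% of the stretches of 31 bases also occur in the overlapping gene Gm42793, which was listed at 0.711 to 8.05 TPM. Apoe (ENSMUSG00000002985, chromosome 7, 19696109 to 19699188, minus strand) was at 6485, 4789.8 and 6149 TPM in the sham group and 5546, 6549 and 8475 TPM in the CAP-treated wounds at day 3. At day 6 it was at 10574, 10292 and 11756 TPM in the sham group, above every library of day 3, while the CAP-treated wounds had 6460.1, 6557 and 13269.7 TPM. Lgals3 (ENSMUSG00000050335, chromosome 14, 47367751 to 47386160, plus strand) lay between 1040.0 and 1760.2 TPM in every library but 1 and reached 3021 TPM in CAP-treated replicate 3 of day 3.

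Of the receptors, Trem2 (ENSMUSG00000023992, chromosome 17, 48346401 to 48354147, plus strand) was at 112, 109 and 131 TPM in the sham group and 126, 143 and 315 TPM in the CAP-treated wounds at day 3. At day 6 the values were 167, 178 and 225 TPM in the sham group and 106, 112 and 229 TPM in the CAP-treated wounds. The sham groups of the 2 days did not overlap, and the CAP-treated groups did. Cd36 (ENSMUSG00000002944, chromosome 5, 17781690 to 17888801, minus strand) was at 75.9, 97.4 and 94.3 TPM in the sham group and 111, 206 and 394 TPM in the CAP-treated wounds at day 3. It was at 70.4, 81.2 and 96.7 TPM in the sham group and 64.7, 57.5 and 104 TPM in the CAP-treated wounds at day 6. Cd36 thus separated the CAP-treated wounds of day 3 from the other 9 libraries, none of which exceeded 104 TPM.

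Ctsk (ENSMUSG00000028111, chromosome 3, 95499256 to 95509362, plus strand) was at 169.9, 183 and 191 TPM in the sham group and 206, 239.8 and 402 TPM in the CAP-treated wounds at day 3, and at 328, 323 and 484 TPM and 243, 230.2 and 395 TPM in these groups at day 6. The 3 sham libraries of day 3 were the lowest of the 12. Cd68 (ENSMUSG00000018774, chromosome 11, 69664213 to 69666153, minus strand) ranged from 425 TPM in CAP-treated replicate 2 of day 6 to 1732 TPM in CAP-treated replicate 3 of day 3, with the 6 sham libraries between 708 and 1067 TPM. Cd9 (ENSMUSG00000030342, chromosome 6, 125460266 to 125494791, minus strand) stayed between 389 and 562 TPM. It shares 20.1% of its stretches of 31 bases with Gm26728 on the opposite strand, which was listed at no more than 0.587 TPM, and the sources used here do not say whether the counting used strand.

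**Figure D1:**
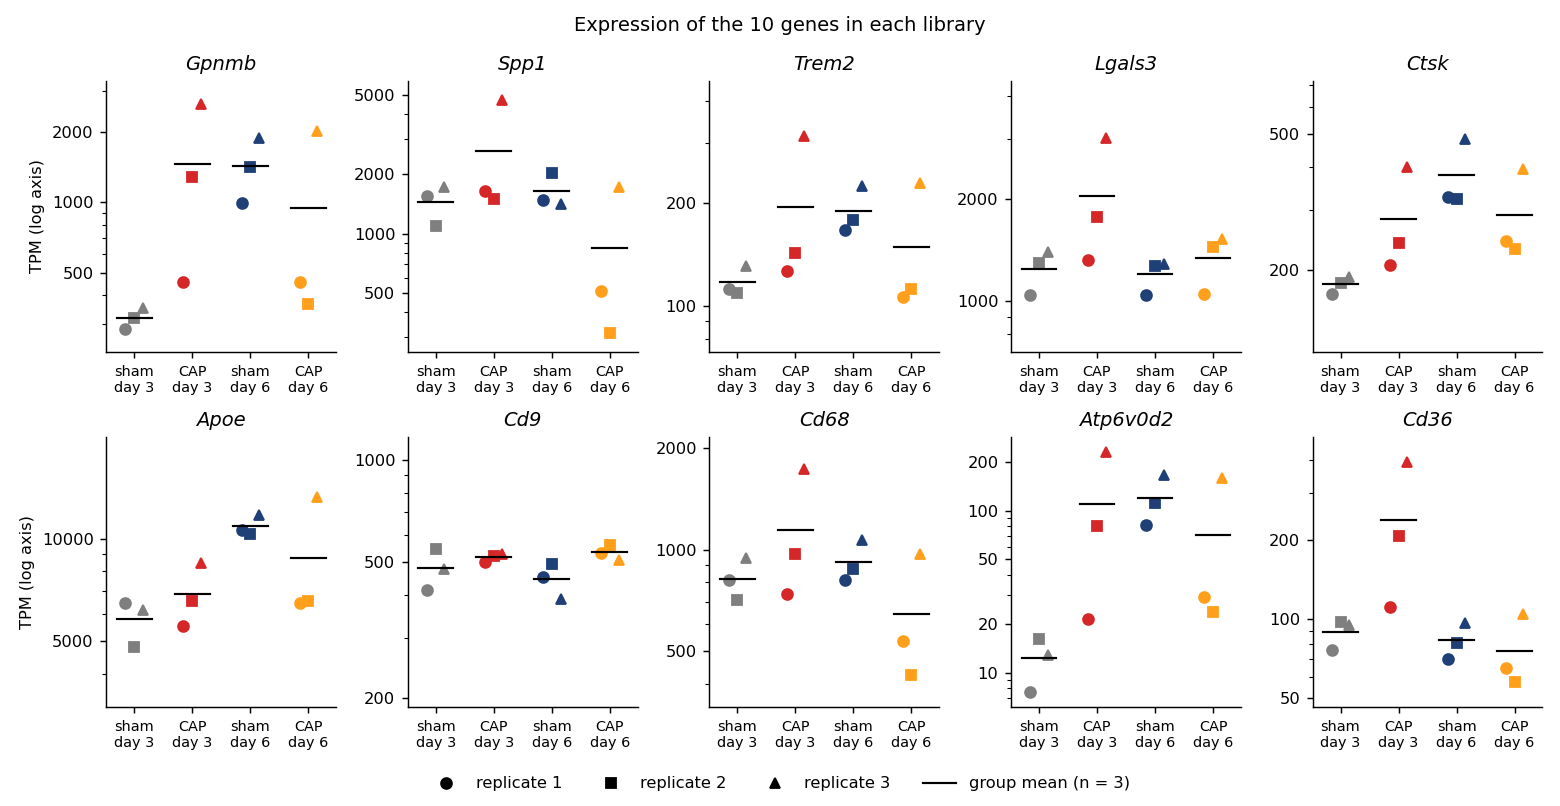
TPM of the 10 members in each library on log axes, with symbols for the replicates, colors for the 4 groups and a line at the mean of each group (n = 3). The 3 sham libraries of day 3 hold the lowest Gpnmb values (286 to 354 TPM), replicate 3 lies well above replicates 1 and 2 in the CAP-treated wounds of both days, and Cd9 is nearly level.

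The spread within the CAP-treated groups is part of each result below. In the CAP-treated wounds of day 3, replicate 3 held the highest value of all 10 members and replicate 1 the lowest of 9. In the CAP-treated wounds of day 6, replicate 3 held the highest value of 9. On the log2 scale, the SD of Gpnmb was 0.15 and 0.46 in the sham groups of day 3 and day 6, and 1.28 and 1.34 in the CAP-treated groups. For Atp6v0d2 these SDs were 0.55, 0.51, 1.71 and 1.50. The median SD over 16169 genes was 0.16 in both sham groups and 0.19 and 0.22 in the CAP-treated groups. Cd9 was the exception, with SDs of 0.04 and 0.07 in the CAP-treated groups.

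At day 3, the comparison of CAP-treated and sham wounds asks which members differed early under CAP. Gpnmb, Atp6v0d2 and Cd36 were higher in the CAP-treated wounds, by 3.64-fold, 6.24-fold and 2.34-fold, and for each of them all 3 CAP-treated libraries were above all 3 sham libraries. Here and below, the threshold is passed by genes with a difference of at least 2-fold and p under 0.05 before adjustment, in a limma fit of log2(TPM + 0.1) over all genes. Of the 18330 genes tested, 0.426% were past it in the higher direction, and 3 of the 10 members were. The log2 differences were 1.86 for Gpnmb (SE 0.57, adjusted p = 0.643), 2.64 for Atp6v0d2 (SE 0.80, adjusted p = 0.626) and 1.23 for Cd36 (SE 0.42, adjusted p = 0.692). After Benjamini-Hochberg adjustment over all genes, 0 of the 10 members and 0.0164% of all genes had a p under 0.05. Ctsk also had groups that did not overlap, with a log2 difference of 0.58 (SE 0.24, adjusted p = 0.744), which is under 2-fold. In all, the groups of 4 members did not overlap, all in the higher direction, against 2.86% of the genes tested, and for these 4 the 2-sided exact permutation p was 0.1, the smallest that 3 libraries against 3 allow.

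The other 6 members were not past the threshold at day 3. Their log2 differences were 0.66 for Spp1, 0.64 for Lgals3, 0.61 for Trem2, 0.40 for Cd68, 0.23 for Apoe and 0.12 for Cd9, with adjusted p values of 0.797 to 0.938. The median over the 10 members was 0.62, beside −0.05 over all genes tested. Without CAP-treated replicate 3, the differences were 1.27 for Gpnmb, 1.82 for Atp6v0d2 and 0.77 for Cd36, the last of which is under 2-fold. Gpnmb and Atp6v0d2 were past the threshold whichever of the 6 libraries was left out, with ranges of 1.27 to 2.54 and 1.82 to 3.53. Cd36 lost it in 3 of the 6, without sham replicate 1 (1.12), CAP-treated replicate 2 (1.23) or CAP-treated replicate 3.

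The macrophage markers did not move in the same way at day 3. Their summed level was 5325 to 7498 TPM in the sham group and 5749.9 to 10519 TPM in the CAP-treated wounds. Of the 14 markers 6 were higher and 8 lower, with 0 past the threshold. The share of all genes at an unadjusted p under 0.05 is not given here, and 5 of the markers were at that p, 4 of them lower. Those with the smallest p were C1qa (log2 difference −0.98, SE 0.16), Aif1 (−0.94) and C1qc (−0.45), each under 2-fold and with adjusted p values of 0.500 to 0.568. Of 8 monocyte markers 4 were lower past the threshold, where 1.16% of all genes were. Their log2 differences were −2.48 for Ly6c2, −1.33 for Ccr2, −1.17 for Cx3cr1 and −1.13 for Plac8. Of the 8, 2 were higher in estimate, up to 0.98, and the median of the list was −0.77. In bulk tissue, a change in the number of cells of a type and a change in RNA per cell cannot be told apart.

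Cells other than macrophages also use some of the members. Cd36 and Cd9 are made by platelets, and the summed level of 6 platelet markers at day 3 was 242 to 405 TPM in the sham group and 445 to 521 TPM in the CAP-treated wounds. Nearly all of it was Pf4 (log2 difference 0.55, SE 0.20, adjusted p = 0.713), 1 of the 3 markers tested was past the threshold (Treml1), and Gp9, Gp1bb and Gp6 were at no more than 0.798 TPM in any library. Cd36 is also made by endothelial cells, adipocytes and muscle, of whose markers (8 each) 0 were past the threshold at day 3. Ctsk is also made by fibroblasts, and the 8 fibroblast markers all had negative log2 differences at day 3, with 0 past the threshold and a median of −0.48. The part of these cells in the values of Cd36, Cd9 and Ctsk was not tested.

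Set against the mean log2 level of the 14 macrophage markers in the same library, a measure chosen after the values were seen, Atp6v0d2 was 2.78 and Cd36 1.36 higher in the CAP-treated wounds at day 3. By this measure 8 of the 10 members had all 3 CAP-treated libraries above all 3 sham libraries, Gpnmb among them, the exceptions being Cd9 and Cd68, where 5.02% of all genes tested had this separation. The marker mean itself differed by −0.14, with an exact permutation p of 0.6. Relative to Adgre1 alone, the gene of the macrophage surface protein F4/80, Gpnmb was at 2.15, 3.48 and 3 in the sham group and 4.92, 11.7 and 14.3 in the CAP-treated wounds of day 3. At day 6 the ratio was 7.48, 11.4 and 12 in the sham group and 5.01, 5.27 and 14.4 in the CAP-treated wounds. The 2 groups were separate at day 3 and overlapped at day 6.

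**Figure D2:**
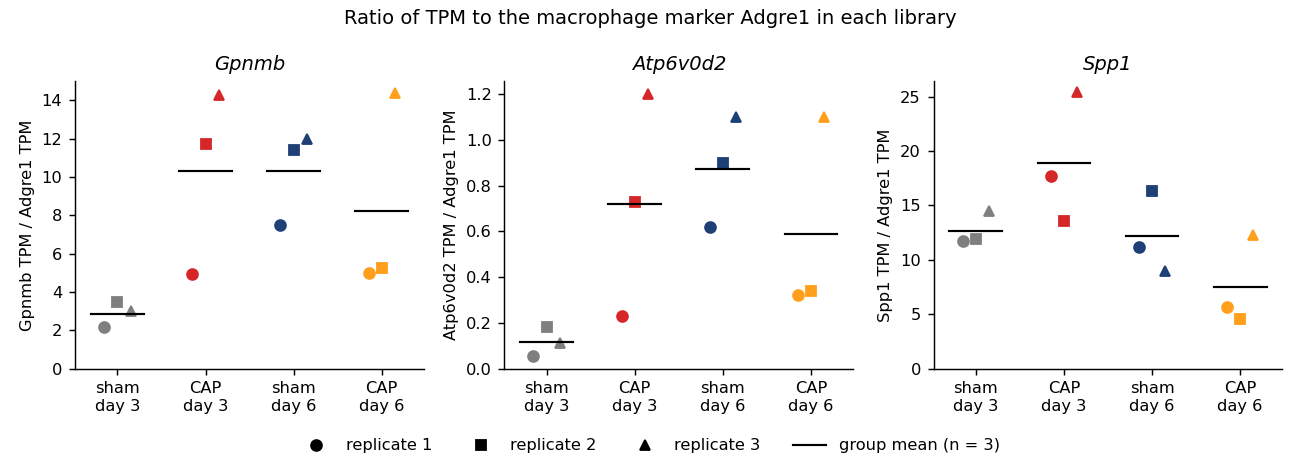
Ratio of the TPM of Gpnmb, Atp6v0d2 and Spp1 to that of Adgre1 in each library on linear axes from 0, with a line at the mean of each group (n = 3). The Gpnmb ratio is 2.15 to 3.48 in the sham group at day 3 and 4.92 to 14.3 in the CAP-treated wounds, while the Spp1 ratio is lowest in CAP-treated replicates 1 and 2 of day 6.

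At day 6, the same comparison gave lower estimates in the CAP-treated wounds for most members, and 0 of the 10 were past the threshold or at an unadjusted p under 0.05, where 3.80% of 18323 genes were past the threshold. Of the members, 8 had a negative log2 difference. The largest were −1.31 for Spp1 (SE 0.57, adjusted p = 0.269), −1.25 for Atp6v0d2 (SE 0.70, adjusted p = 0.349) and −0.99 for Gpnmb (SE 0.63, adjusted p = 0.401). The 95% interval for Gpnmb ran from −2.47 to 0.49, an interval that includes 0. The median over the 10 members was −0.42, beside −0.12 over all genes. Median-ratio scaling brought the median over all genes to −0.01. Under every alternative setting that kept all libraries, Spp1, Atp6v0d2 and Gpnmb stayed at −1.19, −1.14 and −0.87 or lower. Cd9, with a difference of 0.27 (SE 0.13, adjusted p = 0.290), was the only member whose groups did not overlap, at 453, 494 and 389 TPM in the sham group against 533, 562 and 508 TPM under CAP, and 8.01% of all genes were separated in that direction.

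This result turned on CAP-treated replicate 3. Without it, Gpnmb (−1.76), Atp6v0d2 (−2.12) and Spp1 were lower past the threshold, with adjusted p values of 0.0293 to 0.0316, and so were 8.17% of all genes in either direction. The summed macrophage markers in CAP-treated replicates 1 to 3 were 6718, 5321 and 11218 TPM, and 8703 to 12702 TPM in the sham group. The keratinocyte markers moved the other way, at 61318, 91622 and 43951 TPM in these CAP-treated replicates and 25854 to 28816 TPM in the sham group, with 3 of 8 higher past the threshold, where 1.46% of all genes were. The 14 macrophage markers all had negative log2 differences, with a median of −0.52, and 1 was past the threshold (Itgam, −1.04), where 2.34% of all genes were lower. The 8 endothelial markers were all lower in estimate, 4 of them past the threshold, with a median of −1.05. Their sum was 263, 93.9 and 247 TPM in CAP-treated replicates 1 to 3 and 315 to 417 TPM in the sham group, so replicate 2 was far the lowest. The 8 monocyte markers were all lower in estimate too, 2 past the threshold, with a median of −0.61. The 6 neutrophil markers tested were also lower in estimate, with 0 past the threshold and a median of −1.22. The sum of all 8 neutrophil markers was 2675, 281 and 1204 TPM in CAP-treated replicates 1 to 3 and 1769 to 3319.7 TPM in the sham group. The 8 adipocyte markers were higher in estimate, 1 past the threshold, with a median of 0.76. Relative to the mean of the macrophage markers, which itself differed by −0.57 with an exact permutation p of 0.2, the difference at day 6 was −0.42 for Gpnmb, −0.74 for Spp1, −0.69 for Atp6v0d2 and −0.03 for Cd68. It was 0.14 for Trem2, 0.16 for Ctsk and 0.17 for Apoe, and the groups of these 7 members overlapped. Lgals3 (0.71), Cd9 (0.83) and Cd36 (0.40) had all 3 CAP-treated libraries above all 3 sham libraries by this measure, 3 of the 10 members, where 23.0% of all genes tested did. The part of these cell type markers in the members' values at day 6 was not tested.

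In the sham group, the comparison of day 6 with day 3 describes the course without CAP. Gpnmb rose 4.34-fold, Atp6v0d2 9.78-fold and Ctsk 2.05-fold. The log2 differences were 2.12 (SE 0.22), 3.29 (SE 0.33) and 1.04 (SE 0.16), with adjusted p values of 0.0132, 0.0132 and 0.0300. These were 3 of the 10 members, where 2.13% of 18368 genes were past the threshold in that direction. Trem2 rose 1.61-fold (0.69, SE 0.13, adjusted p = 0.0494), which made 4 members with an adjusted p under 0.05, where 1.14% of genes were higher at that level. Apoe was 1.89-fold higher (0.91, SE 0.19, adjusted p = 0.0618). All 5 of these members had every sham library of day 6 above every sham library of day 3, against 10.8% of the genes tested.

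The other 5 members stayed close to their day 3 level in the sham group, with log2 differences of 0.18 for Spp1 (95% interval −0.32 to 0.69), 0.16 for Cd68 (−0.19 to 0.52), −0.05 for Lgals3 (−0.40 to 0.31), −0.10 for Cd9 (−0.42 to 0.22) and −0.11 for Cd36 (−0.45 to 0.23). These intervals leave out a 2-fold difference in either direction. Gpnmb and Atp6v0d2 were past the threshold whichever library was left out, at 1.90 to 2.36 and 2.98 to 3.53. Their adjusted p values rested on single libraries and on the choice of fit, with 0.0594 and 0.0579 without sham replicate 3 of day 3, and 0.249 and 0.178 when the spread was estimated from all 12 libraries together. Ctsk was under 2-fold without sham replicate 1 of day 3 (0.99) or sham replicate 3 of day 6 (0.85), and its adjusted p was under 0.05 in 2 of the 6 fits that left out 1 library, up to 0.106, and 0.180 with the spread from all 12. The adjusted p of Trem2 was above 0.05 whichever of the 6 libraries was left out.

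Between these sham groups, the summed macrophage markers were 5325 to 7498 TPM at day 3 and 8703 to 12702 TPM at day 6, and 11 of 14 had positive log2 differences, with 0 past the threshold and a median of 0.39. Relative to their mean, the difference between the days was 1.81 for Gpnmb, 2.98 for Atp6v0d2, 0.73 for Ctsk, 0.61 for Apoe and 0.38 for Trem2, each with all 3 libraries of day 6 above all 3 of day 3. These are 5 of the 10 members, where 3.16% of all genes tested were separate in this direction by the same measure. Endothelial markers rose as well, 6 of 8 past the threshold, where 2.13% of all genes were higher past it. Their sum went from 121 to 157 TPM at day 3 to 315 to 417 TPM at day 6. The 8 fibroblast markers were all higher in estimate, with a median of 0.30 and 0 past the threshold. The part of these cells in the members' values was not tested. The melanocyte markers tested were 3 of 8, with 0 past the threshold.

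In the CAP-treated wounds, day 6 against day 3 gave another picture. Cd36 fell by 1.51 on the log2 scale (SE 0.46, adjusted p = 0.346) and Spp1 fell by 1.79 (SE 0.70, adjusted p = 0.408), 2 of the 10 members, where 1.52% of 18202 genes were lower past the threshold. The groups of Cd36 did not overlap, which held for 9.63% of genes in that direction, and those of Spp1 did. Of the 3 platelet markers tested 1 was lower past the threshold. This was Pf4, a platelet and megakaryocyte chemokine, which fell by 2.32 on the log2 scale (SE 0.22, adjusted p = 0.0783). The median of the 3 was −0.35, and 1 was higher in estimate (0.13). The part of Pf4 in the value of Cd36 was not tested. Of the 6 neutrophil markers tested 3 were lower past the threshold, with a median of −1.86. Of the 14 macrophage markers 2 were lower past it, Itgam (−1.64) and Fcgr1 (−1.03). Of these 14, 8 were lower and 6 higher in estimate, up to 0.98, with a median of −0.14. An unadjusted p under 0.05 was found for 2 in each direction. Of the 8 keratinocyte markers 3 were higher past the threshold, where 1.27% of all genes were, and 4 were lower in estimate. The part of these cells in the values of Cd36 and Spp1 was not tested. Spp1 lost the threshold without replicate 1 (−2.02) or 3 (−1.26) of day 3 or replicate 1 (−1.62) or 2 (−1.27) of day 6, and Cd36 without replicate 2 of day 6 (−1.34). Gpnmb had a difference of −0.73 (95% interval −2.71 to 1.25) and Atp6v0d2 one of −0.61 (−3.03 to 1.82). The median over the 10 members was −0.57, beside −0.05 over all genes. These intervals include a rise of over 2-fold as well as a fall. The sham libraries and the CAP-treated libraries each enter more than 1 of these comparisons, so the comparisons are not independent of each other.

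**Figure D3:**
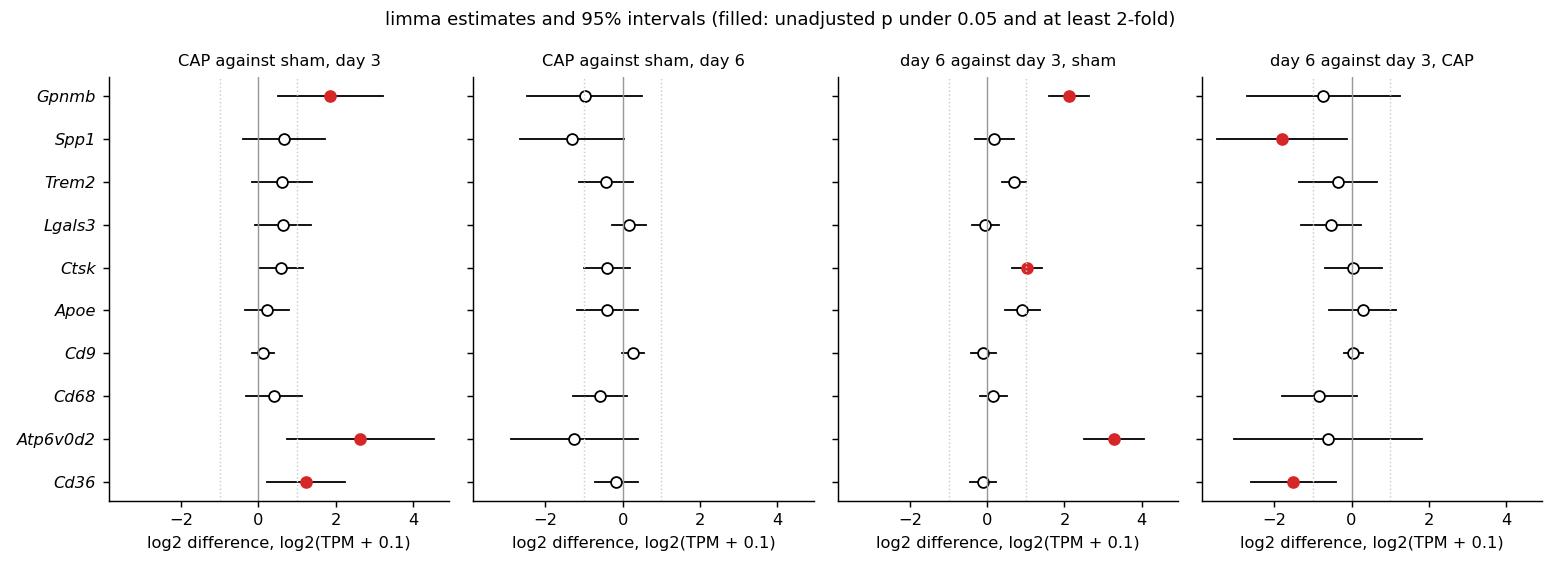
limma log2 differences of the 10 members in 4 comparisons with 95% intervals, filled where the unadjusted p was under 0.05 and the difference at least 2-fold, with dotted lines at 2-fold. The filled points are Gpnmb, Atp6v0d2 and Cd36 for CAP at day 3, none for CAP at day 6, Gpnmb, Atp6v0d2 and Ctsk for time in the sham group, and Spp1 and Cd36 for time in the CAP-treated wounds, where the intervals are wider.

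The difference between the CAP effects of the 2 days was tested over all 12 libraries. It was past the threshold for 4 members, all lower at day 6 than at day 3, where 2.73% of 20267 genes were past it in that direction and 4.90% in either. The log2 values were −3.90 for Atp6v0d2 (SE 1.19), −2.85 for Gpnmb (SE 0.95), −1.97 for Spp1 (SE 0.81) and −1.40 for Cd36 (SE 0.53), and the adjusted p was 0.428 for each. Ctsk had a value of −0.98, just under 2-fold. Trem2 and Cd68 had values of −1.04 and −0.99, with adjusted p values of 0.446 and 0.447. For Atp6v0d2 and Gpnmb the test was past the threshold whichever of the 12 libraries was left out, with ranges of −4.78 to −3.07 and −3.62 to −2.26. Spp1 and Cd36 were past it in 7 and 8 of these 12 fits.

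Likeness to Gpnmb was measured next. Pearson's r over the 12 libraries on the log2 scale was computed for 14013 genes, as a description without a test, since the libraries share groups and treatments. Atp6v0d2 was the gene most like Gpnmb of all 14013 (r = 0.98), and its r stayed at 0.98 after the mean of each group was subtracted. Trem2 (0.93), Ctsk (0.91) and Apoe (0.80) followed among the members. Cd68, Cd36, Spp1 and Lgals3 had lower values over all libraries (0.71, 0.58, 0.57 and 0.55) and higher ones within groups (0.95, 0.93, 0.83 and 0.75). Cd9 was unlike Gpnmb on both counts, at −0.13.

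The genes most like Gpnmb after Atp6v0d2 were Syngr1, Mrgpre, Wdr91, Hvcn1, Bhlhe41, Creg1, Galc, Npc1 and Mcoln3, with r between 0.95 and 0.98 over the 12 libraries and between 0.94 and 0.99 within groups. Several of these are known from lysosomes and endosomes. Galc encodes a lysosomal galactosylceramidase, Npc1 a cholesterol transporter of the lysosomal membrane, Creg1 a lysosomal glycoprotein, Mcoln3 an endolysosomal cation channel, and Wdr91 a regulator of endosome maturation. Hvcn1 encodes a voltage-gated proton channel and Bhlhe41 a transcription factor. Creg1, as an example, was at 112, 81.1 and 107 TPM in the sham group and 118, 171 and 241 TPM in the CAP-treated wounds of day 3, and at 149, 168 and 208 TPM and 107, 101 and 197 TPM at day 6. Mcoln3, at much lower levels, was at 0.612 to 2.12 TPM in the sham group of day 3 and 5.94 to 16.3 TPM in that of day 6.

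**Figure D4:**
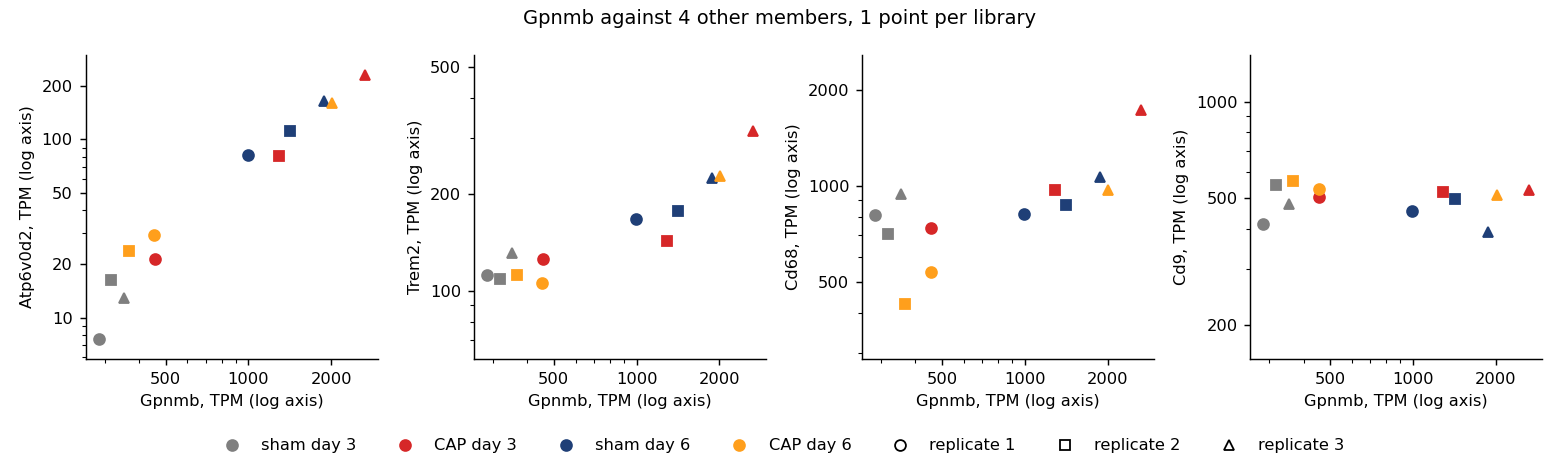
TPM of Atp6v0d2, Trem2, Cd68 and Cd9 against Gpnmb in the 12 libraries on log axes, with colors for groups and symbols for replicates. Atp6v0d2 follows Gpnmb along 1 line over all groups (r = 0.98), Cd68 follows it within groups with CAP-treated replicates 1 and 2 of day 6 lying lower, and Cd9 is flat.

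Lysosomal genes were higher in estimate at day 3 and lower at day 6 in the CAP-treated wounds. Of 24 lysosomal enzymes and membrane genes other than the members, 23 were higher in the CAP-treated wounds at day 3 in estimate, with a median of 0.26, 0 past the threshold and 1 at an unadjusted p under 0.05. Those with the smallest p were Creg1 (log2 difference 0.78), Cstb (0.33), Ctsd (0.80) and Psap (0.84), with adjusted p values of 0.692 to 0.792. Their sum was 15654 to 19231 TPM in the sham group and 17393, 24095 and 38471 TPM in CAP-treated replicates 1 to 3, with the same replicate highest as for the members. Of 17 other subunits of the proton pump, 16 were higher in estimate, with a median of 0.21, 0 past the threshold and Atp6v1a leading (0.37, SE 0.11, adjusted p = 0.630). At day 6, 23 of the 24 lysosomal genes were lower in estimate, with a median of −0.43, beside −0.12 over all genes, 0 past the threshold and 2 at an unadjusted p under 0.05. At that day 13 of the 17 pump subunits were lower in estimate, with a median of −0.19 and 0 past the threshold. In the difference of the CAP effect between the days, 6 of the 24 lysosomal genes were lower past the threshold, where 2.73% of all genes were, with a median of −0.67. At day 3 the 4 MiT family factors ranged from −0.14 for Tfe3 to 0.22 for Tfec, with no p under 0.05. In the sham group from day 3 to day 6, 14 of the 24 lysosomal genes had an unadjusted p under 0.05 and a higher level, among them Creg1 (0.81, adjusted p = 0.0573) and Pld3 (0.76, adjusted p = 0.0573), but 0 were at least 2-fold, 0 passed the adjustment, and 8.05% of all genes were higher at that unadjusted p.

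Of 19 other genes of lipid handling, 17 were higher in estimate at day 3 in the CAP-treated wounds, with a median of 0.37. Plin2, which coats lipid droplets, was past the threshold (log2 difference 1.18, SE 0.47, adjusted p = 0.734). It was at 274, 251 and 344 TPM in the sham group and 299, 788 and 1176 TPM in the CAP-treated wounds, so that replicate 1 lay within the sham range. Nceh1, a cholesteryl ester hydrolase (0.81), Lipa, the lysosomal acid lipase (0.78), and Npc1 (0.48) were not past it, with adjusted p values of 0.756 to 0.783. Lower past the threshold under CAP at day 6 were Msr1, a scavenger receptor (−1.08), and Ch25h, a cholesterol hydroxylase (−1.60), with adjusted p values of 0.209 and 0.240. In the difference between the days, 5 of the 19 were lower past the threshold, where 2.73% of all genes were. Those with the smallest p were Plin2 (−2.12), Msr1 (−1.26) and Nceh1 (−1.38), each with an adjusted p of 0.428.

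Tyrobp, the adaptor through which TREM2 signals, had log2 differences of 0.39 (adjusted p = 0.858) at day 3 and −0.71 (adjusted p = 0.262) at day 6 in the CAP-treated against the sham wounds, and 0.52 (adjusted p = 0.116) from day 3 to day 6 in the sham group. For Hcst, the related adaptor DAP10, the values at day 3 and day 6 were 0.71 (adjusted p = 0.799) and −0.78 (adjusted p = 0.205). The difference between them, −1.48 (adjusted p = 0.428), was past the threshold together with that of Tyrobp (−1.09, adjusted p = 0.428). In this test 2 of the 9 genes of the list were lower past the threshold, where 2.73% of all genes were. Of the 9 TREM2 adaptor and signal genes, 8 were higher in estimate at day 3 and 9 lower at day 6, with 0 past the threshold at either day. Their medians were 0.08 at day 3 and −0.69 at day 6, beside −0.05 and −0.12 over all genes. At day 6, 2 of the 9 had an unadjusted p under 0.05, where 12.5% of all genes were lower at that p.

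Atp6v0d2 and Ctsk are also known from osteoclasts and multinucleated giant cells, and 10 genes of these cells were examined. Ocstamp and Dcstamp, which cells need for fusion, were at no more than 0.636 and 0.412 TPM in any library, Calcr (the calcitonin receptor) at no more than 0.113 TPM, and Oscar at no more than 0.602 TPM. Other genes of the list were expressed in every library, with Acp5 at 46.1 to 67.3 TPM, Nfatc1 at 32.1 to 45.6 TPM, Tnfrsf11a at 6.22 to 13.9 TPM and Mmp14 at 297 to 498 TPM. The matrix proteases Mmp12 and Mmp9 rose in the sham group from day 3 to day 6 by 1.99 (adjusted p = 0.0146) and 1.29 (adjusted p = 0.0435) on the log2 scale. Under CAP at day 6 both were lower past the threshold, with log2 differences of −1.24 (adjusted p = 0.212) and −1.19 (adjusted p = 0.205). Mmp12 was at 8.62, 12.4 and 7.63 TPM in the sham group of day 3 while the CAP-treated wounds had 8.26, 11.4 and 46.9 TPM. As for the members, replicate 3 was the highest.

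**Figure D5:**
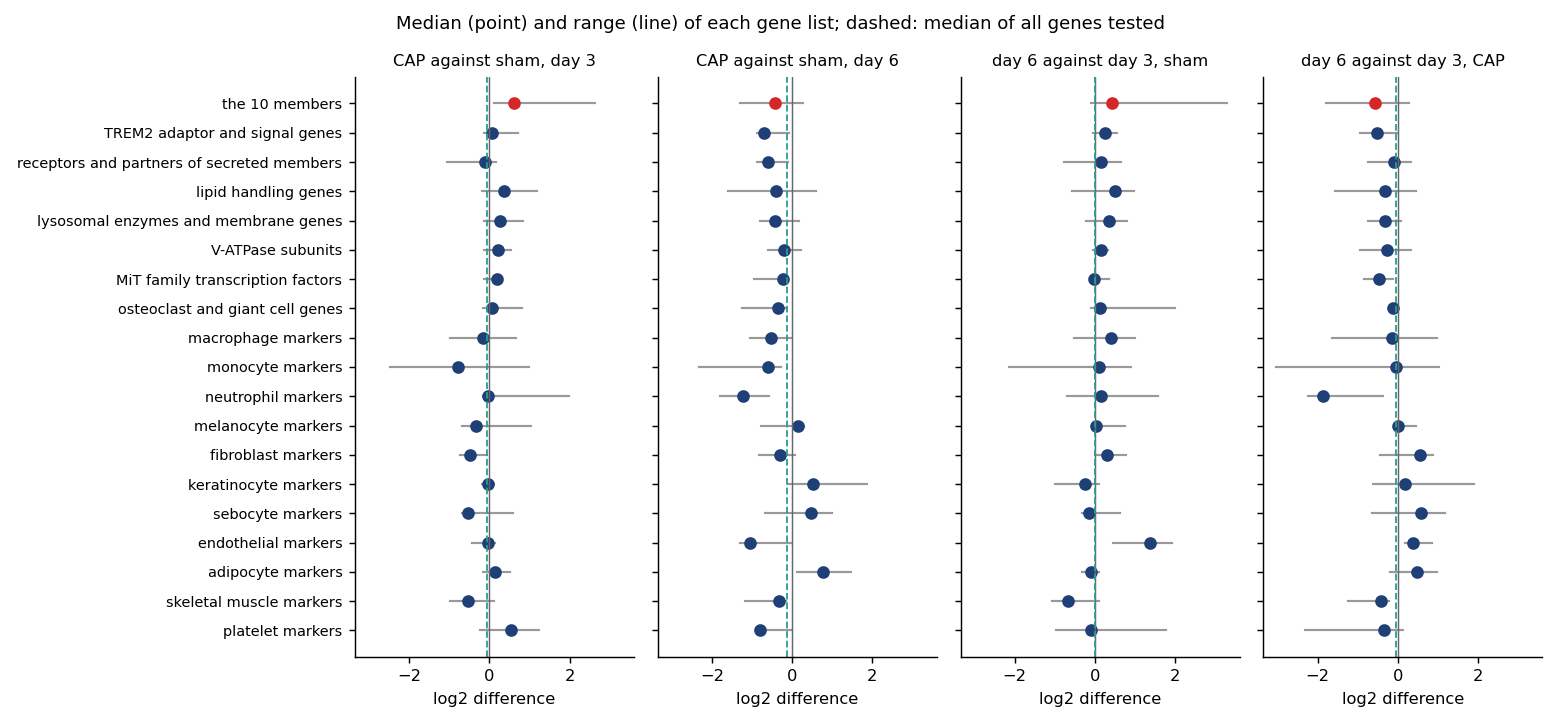
Median log2 difference (point) and range over genes (line) of the 10 members and of 18 other gene lists in 4 comparisons, with the median of all genes tested as a dashed line. The members have medians of 0.62 and −0.42 for CAP at day 3 and day 6, macrophage markers lie at a median below 0 in both, and keratinocyte markers lie at 0.53 at day 6.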

How the data were processed

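RNA of mouse wounds was sequenced by the authors as paired-end reads from SureSelect XT HS2 mRNA libraries. Per the labels, bcl2fastq and Trimmomatic 0.36 were used, with the mouse build mm10. Each of the 12 deposited tables holds the TPM of 1 library per gene, which the authors computed with StringTie. The aligner, annotation release and strand setting are each not given in the sources used here. Among the 55487 gene IDs, 55141 were in GENCODE M21 and 54777 had its coordinates on GRCm38. The value 0.0001 stands for 0. Depth is unknown, so no counting error could be given, and precision rests on 3 libraries per group.

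Fold changes are on the log2(TPM + 0.1) scale, which understates changes of low genes. Genes were kept where both groups had a mean of 0.3 TPM or more (for the difference between days, at least 1 of 4 groups) and fitted by limma 3.58.1 (R 4.3.3, trend on, not robust), and p values were adjusted by Benjamini-Hochberg over all genes. The threshold was an unadjusted p under 0.05 and at least 2-fold. Exact permutation tests were 2-sided. Python 3.11.15, numpy 2.4.6, pandas 2.3.3 and matplotlib 3.10.9 were used.

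The members and gene lists were chosen with earlier results of these data known, and no list is independent evidence. Named in the text are all members, of each list the 4 genes with the smallest p at most, and the 10 genes most like Gpnmb with a mean of at least 1 TPM, without Gm and Rik genes. Pf4, Gp9, Gp1bb, Gp6, Adgre1, Atp6v0d1 and the osteoclast genes other than Mmp12 and Mmp9 were picked after values were seen. Alternatives were pseudocounts of 1 and 0.01 TPM, no filter, median-ratio scaling, quantile normalization, a joint fit, the replicate number as a block, and leaving out each library. Promoter sequences are from RefSeq (GRCm38.p6), and shared 31-base stretches were counted in GENCODE M21 transcripts.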

Additional observations from a re-analysis of the deposited data

Results flagged for a closer look

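The CAP effect differed between day 6 and day 3 for 4 members by the limma test of the difference itself (unadjusted p under 0.05 and at least 2-fold), with log2 values, day 6 minus day 3, of −2.85 for Gpnmb, −1.97 for Spp1, −3.90 for Atp6v0d2 and −1.40 for Cd36. The adjusted p over all genes was 0.428 for each, and 4.90% of all genes were past the same threshold in either direction. In the CAP-treated wounds of day 3, replicate 3 held the highest value of all 4 genes, and it did so for Gpnmb, Spp1, Atp6v0d2 and Cd36 at day 6 as well. Without replicate 3 of day 3 the test was past the threshold for 2 members, and without replicate 3 of day 6 for 7.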

How the results depend on the processing

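Pseudocounts of 1 and 0.01 TPM and median-ratio scaling changed no count of members past the threshold. At day 6, the count for CAP against sham was 1 instead of 0 in the joint fit of all 12 libraries (Spp1) and 1 with the replicate block (Atp6v0d2). For day 6 against day 3 in the CAP-treated wounds it was 1 instead of 2 with no filter and 1 with quantile normalization, in each case without Spp1. Correlations of the deviations from group means were −0.11 to 0.22 for replicates with the same number and −0.22 to 0.19 for those with different numbers. The numbers were therefore not taken as pairs, although the highest value, 0.22, was that of replicate 3 in the CAP-treated wounds of day 3 and day 6. With the replicate block, 5 members instead of 4 were past the threshold in the difference between days (with Trem2), and the other counts were 3, 3 and 2, as without it.

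Leaving out 1 library gave counts of 0 to 3 for CAP against sham at day 6, 0 to 3 for the days in the CAP-treated wounds, and 2 to 7 for the difference between days. Estimates near 0 changed sign: Cd36 for CAP at day 6 (−0.43 to 0.00), Spp1 (−0.01 to 0.31) and Lgals3 (−0.17 to 0.05) between the days in the sham group, and Ctsk (−0.19 to 0.34), Trem2 (−0.71 to 0.06), Atp6v0d2 (−1.49 to 0.22) and Apoe (−0.05 to 0.47) between the days in the CAP-treated wounds. The cause was not tested. For the days in the sham group, 420 genes had an adjusted p under 0.05, but 0 in the joint fit and 1 without sham replicate 3 of day 3. With no filter it was 114, and without another sham library it was 83 to 498. Across all genes, the number past the threshold for CAP at day 3 was 290, but 154 with a pseudocount of 1 TPM, 568 with no filter and 510 without CAP-treated replicate 1. At day 6 it was 697, but 385 with that pseudocount, 311 without CAP-treated replicate 2 and 1483 without replicate 3. Between the days it was 688 in the sham group (405 with that pseudocount and 1156 with no filter) and 507 in the CAP-treated wounds (299 and 842, and 886 without replicate 3 of day 6). For the difference between days it was 994, but 580 with that pseudocount, 657 without CAP-treated replicate 2 of day 6 and 1777 without replicate 3. With 3 libraries per group and unknown depth, a miss of the threshold does not show equal levels.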

Other observations

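Receptors and partners of the secreted members (13 genes) had negative log2 differences in the CAP-treated wounds for 10 of 13 at day 3 and 13 at day 6, with medians of −0.10 and −0.59, beside −0.05 and −0.12 over all genes. At day 3, Lgals3bp, a secreted binding partner of galectin-3, was lower past the threshold (log2 difference −1.05, SE 0.24, adjusted p = 0.500). At day 6, 7 of the 13 had an unadjusted p under 0.05, where 12.5% of all genes were lower at that p, and 0 were past the threshold. The integrin genes Itga9 (−0.87), Itgb1 (−0.69) and Itgav (−0.59), whose products bind osteopontin, were among them, with adjusted p values of 0.206 to 0.226. In the sham group from day 3 to day 6, Lgals3bp was lower by limma (−0.77, adjusted p = 0.0480), and Itga9 had a difference of 0.64 (adjusted p = 0.200).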
